A study of Mus musculus with 51 samples.

Results

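B16-BL6 melanoma and Myc-CaP prostate tumors that carried a nontargeting guide RNA are the unperturbed controls of a study on the ubiquitin-activating enzyme UBA1, and the 6 of them were compared with each other here, out of 51 bulk RNA-seq libraries in all. They were chosen by their titles alone, as the libraries B16-BL6_sgNC_T1, T2 and T4 and Myc-CaP_sgNC_T1, T2 and T3, so values below are listed in the order of replicates 1, 2 and 4 for B16-BL6 and 1, 2 and 3 for Myc-CaP. B16-BL6 is a pigmented mouse melanoma line of C57BL/6 origin, and by the study's methods it was grown subcutaneously in female C57BL/6 mice. Myc-CaP is a prostate carcinoma line of FVB origin that carries a human MYC transgene, and it was grown subcutaneously in male FVB mice. Mice of both strains were 6 to 8 weeks old, immunocompetent and injected in both flanks, so tumors of a group may share a mouse, and p-values measure the spread between these tumors. Both lines received lentiCRISPR v2 with the control guide by transfection, then puromycin selection and outgrowth of sublines from single cells, and the study describes the Myc-CaP control as a clone. The labels record both groups as wild type and untreated. The control guide, shown because it is the construct that both groups share, is 20 bases long:

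Nontargeting control: acgtgtaaggcgaacgcctt

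Line, strain, host sex and depth all differ between the 2 groups. Their library numbers also fall in separate ranges, so the groups may differ in batch as well. The parts of all these in any difference cannot be told apart. The B16-BL6 libraries held 30780288, 35693203 and 28570255 expected counts, and the Myc-CaP libraries 11610520, 10668740 and 12552908. Myc-CaP replicate 2 stood apart from the other two, with a Pearson's r of log2 CPM across genes of 0.957 and 0.968 to replicates 1 and 3, against 0.982 between those replicates and 0.9905 to 0.9932 within B16-BL6. It held less Myc and fewer proliferation transcripts and more keratin, Arg1 and Ido1 RNA than the other 2 Myc-CaP tumors, as given beside each result. Further Myc-CaP controls served as a check, namely 3 empty-vector (EV) tumors of 8652097 to 9138696 counts, 6 vehicle-treated tumors of 26892870 to 35047070 counts, which match the B16-BL6 depth, and 4 libraries of unstimulated control Myc-CaP cells in culture, which hold no host cells. No cultured B16-BL6 library was analysed here.

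Melanocytes derive from the neural crest and are set up by the transcription factors PAX3, SOX10 and MITF. MITF binds a short DNA element known as the M-box at the promoters of pigment enzyme genes, and the enzymes TYR, TYRP1 and DCT make melanin in melanosomes. Luminal prostate epithelium is marked by the transcription factors FOXA1 and HOXB13, and epithelia in general carry keratins, claudins and the GRHL, ESRP and OVOL factors that maintain them. Ubiquitin is activated by an E1 enzyme, UBA1 or UBA6, passed to an E2 and attached to substrates by an E3 ligase. Deubiquitinases remove it, and the proteasome degrades many of the marked proteins. Interferons signal through JAK kinases and STAT factors to induce antiviral, antigen presentation and chemokine genes.

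The M-box letters TCATGTG, read on both strands, stand in the RefSeq promoter windows (GRCm38.p6, 250 bases before to 50 after the annotated start) of 6 of the 15 melanocyte lineage genes that have one, against 4.31% of 27025 genes overall. A match to these letters is a description and not a binding site. Mlana and Pmel, also widely separated between the tumors, are not among the 6. The stretches around the matches are shown because the 6 genes include Dct and Tyrp1, the pigment genes with the widest separation. They lie upstream of the start and are written 5′ to 3′ on the strand of the gene, with the motif or its reverse complement in capitals:

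Tyr, chr7:87493513-87493574 (minus strand): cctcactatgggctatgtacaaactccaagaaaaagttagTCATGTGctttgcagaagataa
Tyrp1, chr4:80834126-80834212 (plus strand): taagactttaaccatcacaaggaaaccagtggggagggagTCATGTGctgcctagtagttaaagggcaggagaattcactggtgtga
Dct, chr14:118052351-118052437 (minus strand): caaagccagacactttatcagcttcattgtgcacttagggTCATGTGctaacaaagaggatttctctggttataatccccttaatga
Trpm1, chr7:64153653-64153739 (plus strand): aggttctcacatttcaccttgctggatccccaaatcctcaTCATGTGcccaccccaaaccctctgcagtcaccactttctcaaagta
Mc1r, chr8:123406990-123407076 (plus strand): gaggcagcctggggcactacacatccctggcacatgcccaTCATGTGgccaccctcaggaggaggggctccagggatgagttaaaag
Slc24a5, chr2:125068074-125068126 (plus strand): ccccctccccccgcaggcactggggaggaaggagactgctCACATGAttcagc

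The first base of the motif lies 22 bases before the start in Tyr, 47 in Tyrp1, 151 in Dct, 142 in Trpm1, 52 in Mc1r and 13 in Slc24a5. Dct holds a further match on the opposite strand.

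Of 17114 genes tested with edgeR's quasi-likelihood test, 5167 (30.2%) were higher in B16-BL6 and 5076 (29.7%) were higher in Myc-CaP at an adjusted p under 0.05. A difference of at least 4-fold was called for 1649 genes (9.64%) higher in B16-BL6 and for 1552 (9.07%) higher in Myc-CaP. The median log2 fold change over all genes tested was -0.003. With so many genes called, the count for any list is to be read against these shares. Log2 fold changes are B16-BL6 over Myc-CaP throughout, with their standard errors, and CPM is counts scaled to a depth of 1e+06 with TMM factors. In whole tumors, fewer cells of a type and less RNA per cell cannot be told apart. The plot of the gene lists shows that the lineage lists lay far from 0 and that the ubiquitin, interferon and stromal lists spread on both sides of it.

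**Figure D1:**
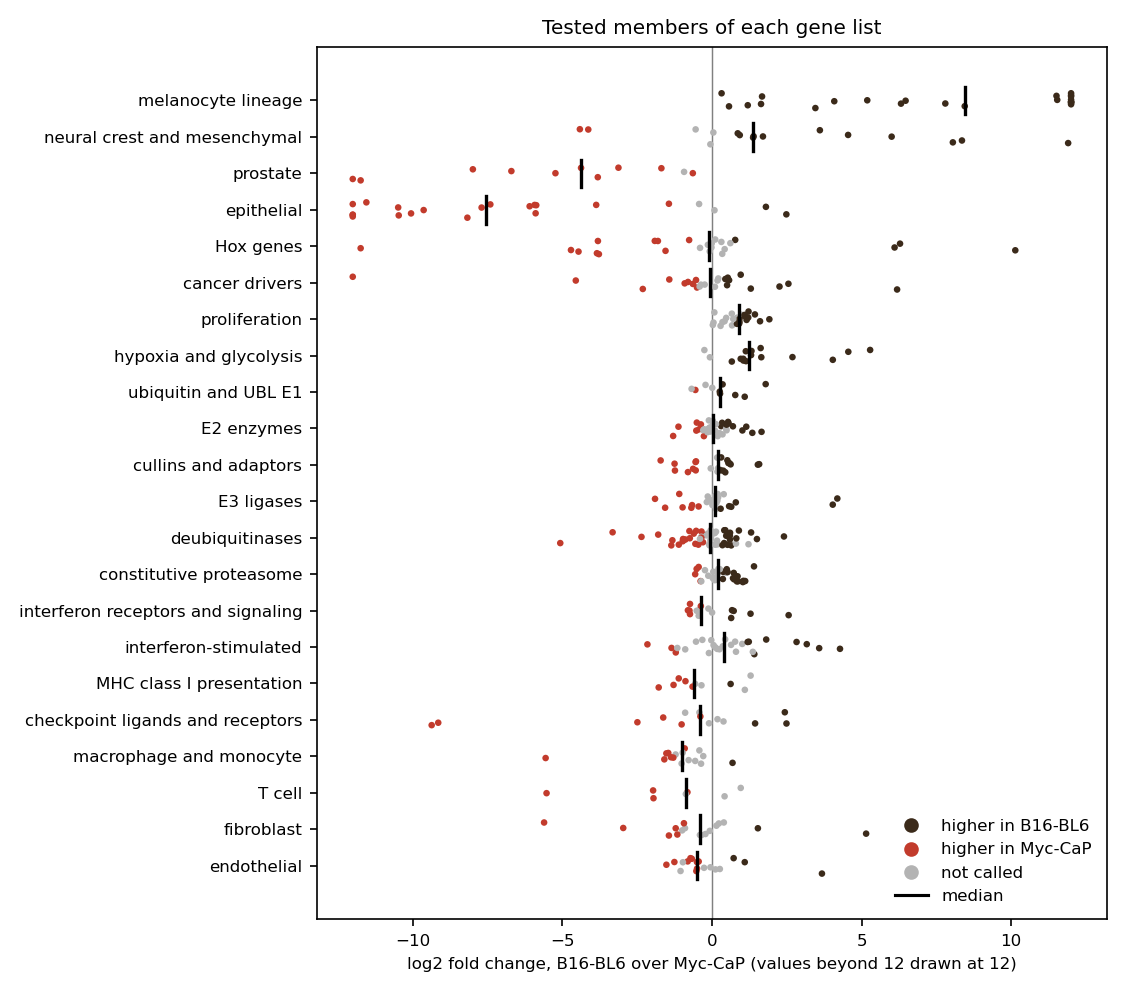
Log2 fold change of each tested gene, B16-BL6 over Myc-CaP, in 22 gene lists, with positive values higher in B16-BL6. Each point is a gene, colored by its call, the black bar is the list median, and values beyond 12 in either direction are drawn at 12. The melanocyte list has its median at 8.45 and the epithelial list at -7.55, whereas the E2, deubiquitinase and cancer driver lists have theirs within 0.1 of 0.

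All 23 melanocyte lineage genes were higher in B16-BL6, against 30.2% of all genes tested, and 18 of them were so by at least 4-fold, against 9.64%, with a median log2 fold change of 8.45, or 7.80 with genes that had no count in Myc-CaP set at their lower bound. When any single tumor was left out, 21 or 22 of the 23 were higher in B16-BL6. Dct, the dopachrome tautomerase, reached 6057, 5839 and 5068 CPM in the B16-BL6 tumors and had no count in the 3 Myc-CaP tumors, the 3 EV tumors, the 6 vehicle tumors or the cultured cells. Set against a floor of 3 counts per library, Dct was at least 21400-fold higher in B16-BL6. Tyrp1, a further melanin enzyme, reached 2625, 3605 and 2650 CPM and was at least 11200-fold higher. Both separated the tumors completely. Tyr, the rate-limiting enzyme of melanin synthesis, stood at 528, 482 and 504 CPM in B16-BL6 and at 2.04, 2.19 and 2.54 CPM in Myc-CaP, a log2 fold change of 7.80 ± 0.13. Pmel, which forms the melanosome fibrils, stood at 4048, 4157 and 3676 against 1.53, 0.397 and 0.477 CPM. Mlana, the MART-1 antigen, stood at 689.7, 740.3 and 696 CPM in B16-BL6 and had a single count in all of Myc-CaP. The 2 groups did not overlap for any of these genes.

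The regulators separated less evenly. Sox10, the neural crest factor upstream of Mitf, reached 457, 463 and 418 CPM in B16-BL6 with no count in Myc-CaP, at least 1690-fold higher. Pax3 stood at 207, 211 and 197 against 0.596, 0.596 and 0.557 CPM. Mitf was not absent from Myc-CaP, with 13.6, 24.8 and 17.9 CPM there against 639, 684 and 729 CPM in B16-BL6 (log2 fold change 5.19 ± 0.24, adjusted p = 4.62e-06), and the cultured Myc-CaP cells held 5.04 to 7.26 TPM. Melanosome transport genes were present in both tumors. Myo5a, the myosin that carries melanosomes, stood at 968, 909 and 843 against 277, 319.7 and 276 CPM, and its partners Mlph and Rab27a gave log2 fold changes of 1.68 ± 0.13 and 1.20 ± 0.25. The members with the least separation were Ednrb, the endothelin receptor of melanoblasts, at 0.57 ± 0.16, and the transcription factor Tfap2a at 0.32 ± 0.11. Kit, the receptor of melanoblasts and mast cells, was at 73.6, 104 and 69.2 CPM in B16-BL6, against 7.07, 4.17 and 3.26 CPM in Myc-CaP and 0 in the cultured Myc-CaP cells.

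**Figure D2:**
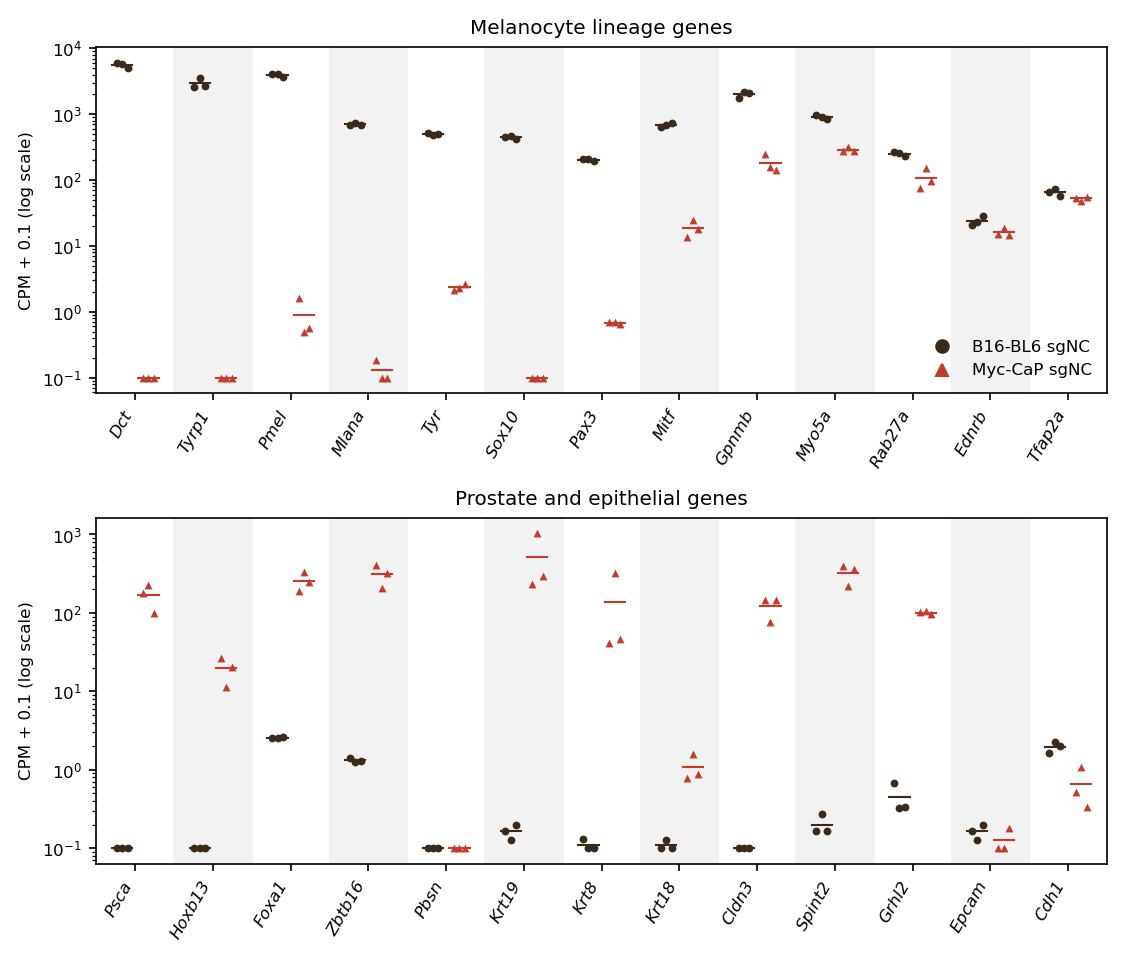
CPM plus 0.1 on a log scale in each tumor, with circles for the 3 B16-BL6 and triangles for the 3 Myc-CaP tumors and bars at the group means. Points at 0.1 are libraries with no count. Dct lies at 5068 CPM or more in every B16-BL6 tumor and at 0 in every Myc-CaP tumor, Psca shows the reverse order, and Pbsn, Epcam and Cdh1 lie low in both.

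None of the 11 tested prostate genes was higher in B16-BL6, and 10 were higher in Myc-CaP, against 29.7% of all genes, 8 of them by at least 4-fold, against 9.07%, with a median log2 fold change of -4.37. Foxa1, a pioneer transcription factor, stood at 189.5, 336 and 249.7 CPM in Myc-CaP and 2.43, 2.46 and 2.54 CPM in B16-BL6, a log2 fold change of -6.70 ± 0.26 (adjusted p = 2.15e-06). Hoxb13, the prostate homeobox factor, reached 26.9, 11.4 and 20.4 CPM in Myc-CaP and had no count in B16-BL6, at least 208-fold lower. Fkbp5, a co-chaperone, stood at 1033, 562 and 789 CPM in Myc-CaP and 91, 96.2 and 86.4 in B16-BL6, and Zbtb16, a zinc finger factor, at 413, 208 and 318 and 1.33, 1.16 and 1.2. Psca, prostate stem cell antigen, stood at 181, 228 and 99.1 CPM in Myc-CaP with no count in B16-BL6, at least 1800-fold lower. Steap4, a metalloreductase, was high in Myc-CaP tumors at 120, 218 and 185 CPM, yet 0.107 to 2.8 TPM in the cultured cells.

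Several defining luminal genes were at or near 0 in the prostate tumors. Pbsn, the probasin gene of mouse prostate secretion, averaged 0 CPM in Myc-CaP and 0 CPM in B16-BL6, and Tmprss2 averaged 0.0265 and 0 CPM. Folh1, which encodes the prostate-specific membrane antigen, ranged widely among the Myc-CaP tumors, at 4.26, 0.199 and 1.67 CPM, and was not tested because of its low counts. Acpp, the prostatic acid phosphatase gene, was read in both, at 26.3, 13 and 43 CPM in Myc-CaP and 8.72, 8.4 and 8.49 in B16-BL6 (-1.69 ± 0.39), and at 0.727 to 2.87 TPM in the cultured cells.

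Of 22 tested epithelial genes, 18 were higher in Myc-CaP and 2 in B16-BL6, against 29.7% and 30.2% of all genes. The difference was at least 4-fold for 17 of those 18, where 9.07% of all genes were so called. Without any one B16-BL6 tumor, 1 was higher in B16-BL6. Cultured Myc-CaP cells expressed 12 of those 18 at 1 TPM or more in all 4 libraries. The epithelial factor Grhl2 stood at 102, 105 and 95.8 CPM in Myc-CaP and 0.583, 0.226 and 0.234 in B16-BL6, and the splicing factor Esrp2 at 85.5, 67 and 97.5 and 0.0324, 0.0849 and 0.1. Cldn3, a tight junction claudin, reached 147, 75.8 and 146 CPM with no count in B16-BL6. The protease inhibitor Spint2 reached 396, 219.8 and 366 CPM. Keratins were uneven, since Krt19 stood at 232, 1032 and 297 CPM and Krt8 at 41, 324 and 46.3 CPM, with replicate 2 highest by far for both, while Krt18, the usual partner of Krt8, stood at only 0.681, 1.49 and 0.795 CPM. Krt15, a keratin of basal and stem-like epithelium, stood at 186, 1281 and 499.6 CPM in Myc-CaP with no count in B16-BL6, and at 737.9 to 933.6 TPM in the cultured cells.

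Both groups are labelled as epithelial cells, which the markers of neither fully matched. Epcam, a defining surface marker of epithelia, averaged 0.0645 CPM in B16-BL6 and 0.0265 CPM in Myc-CaP, and Cldn7 averaged 0 and 0.0265. Cdh1, the gene of E-cadherin, was higher in B16-BL6 at 1.52, 2.15 and 1.94 CPM against 0.426, 0.993 and 0.239 CPM, both low levels, and Dsp, the desmosome protein, was higher as well at 1, 0.538 and 0.502 against 0.255, 0.0993 and 0 CPM. In the melanoma, 4 of 29 epithelial genes had no count in the 3 libraries. The Epcam and Cdh1 levels in the EV and vehicle tumors were low too, with no Myc-CaP control tumor above 0.239 TPM of Epcam or 0.545 TPM of Cdh1.

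Neural crest and mesenchymal genes were mostly higher in the melanoma. Of 16 tested, 11 were higher in B16-BL6 and 2 in Myc-CaP, against 30.2% and 29.7% of all genes. Vim, the intermediate filament of mesenchymal cells, stood at 1958, 2322 and 1984 CPM in B16-BL6 and 153, 221 and 141 CPM in Myc-CaP (log2 fold change 3.61 ± 0.20). The cadherins followed the same order, with Cdh2 (N-cadherin) at 104, 102 and 100.4 against 1.02, 1.29 and 2.39 CPM and Cdh19, a cadherin of neural crest and Schwann cells, at 143, 123 and 134 CPM against a single count in Myc-CaP. S100b, the melanoma marker protein, stood at 132, 95.7 and 101 against 0.17, 0.496 and 0.557 CPM. The other direction was taken by Sox9, at 2.24, 2.04 and 2.71 CPM in B16-BL6 and 40.4, 39.3 and 68.8 in Myc-CaP, and by Ngfr, the nerve growth factor receptor, at 0.227, 0.453 and 0.335 and 10.3, 1.59 and 6.2. The mesenchymal factors Zeb2 and Snai2 were higher in B16-BL6, at 1.71 ± 0.18 and 1.38 ± 0.22, whereas Zeb1 stood at 5.38, 5.89 and 7.96 against 6.38, 6.46 and 7.08 CPM and was not called.

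Hox genes, which record body position, were called in both directions, with a median of -0.10. Of 24 tested, 4 were higher in B16-BL6 and 10 in Myc-CaP, against 30.2% and 29.7% of all genes. B16-BL6 held the posterior genes Hoxa10 (32.5, 32.2 and 32.1 CPM against 0.255, 0.596 and 0.398), Hoxa11 (6.54, 7.02 and 5.82 against no count, at least 24.5-fold) and Hoxd13 (4.05, 4.61 and 4.48 against 0.17, 0 and 0). Myc-CaP held the Hoxb run, with log2 fold changes of -1.55 for Hoxb3, -1.91 for Hoxb4, -3.84 for Hoxb5, -3.81 for Hoxb6 and -4.46 for Hoxb9, together with Hoxd8 (-3.78) and Hoxd9 (-4.71). Among anterior Hoxa genes the groups overlapped, as Hoxa5 stood at 11.1, 9.99 and 9.57 CPM against 9.79, 13 and 8.03 and Hoxa3 at 7.87, 7.87 and 7.26 against 5.62, 13.5 and 6.28.

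The cancer driver list split evenly, with 9 of 24 tested genes higher in B16-BL6 and 9 in Myc-CaP, against 30.2% and 29.7% of all genes. Myc stood at 239, 223 and 209 CPM in B16-BL6 and 1532, 392 and 1400 CPM in Myc-CaP, a log2 fold change of -2.31 ± 0.47, and reads of the human MYC transgene and of mouse Myc cannot be told apart in this gene-level table. Myc-CaP replicate 2 held the least Myc of the 3, yet still more than every B16-BL6 tumor. Ccnd2, encoding cyclin D2, stood at 1098, 859 and 911 CPM in B16-BL6 against 12.5, 11.9 and 14.9 CPM. The kinase partner Cdk6 ran the other way at 106, 85.8 and 102 against 225, 286 and 277 CPM. Cdkn2a, the tumor suppressor locus for p16 and p19Arf (chromosome 4, 89274471 to 89294653, minus strand), had 1 count in all 3 B16-BL6 libraries and 74.2, 77.3 and 76 CPM in Myc-CaP, and its neighbor Cdkn2b stood at 0.292, 0.17 and 0.1 against 1.79, 9.63 and 2.31 CPM. The p53 target Cdkn1a was higher in B16-BL6 at 181, 156 and 170.3 against 41.6, 15.4 and 28.9 CPM, as were Trp53 (0.45 ± 0.08) and the p53 ligase gene Mdm2 (0.57 ± 0.12). Braf and Nras, members of the pathway that melanoma commonly mutates, were higher in Myc-CaP, at -0.80 ± 0.08 and -0.50 ± 0.08.

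Proliferation genes were higher in the melanoma, 13 of 25 by the test, against 30.2% of all genes. None was called in the other direction, and the median log2 fold change was 0.91. Their summed level was 4314, 4780 and 4051 CPM in the B16-BL6 tumors and 2901, 1392 and 3144 CPM in the Myc-CaP tumors, so replicate 2 was the low one. Mcm2, a subunit of the replication helicase, stood at 253, 306 and 227 against 92.6, 54.3 and 111 CPM. Mki67, the Ki-67 gene, stood at 964, 1002 and 896 against 646, 262 and 689.7 CPM and did not pass (adjusted p = 0.0655). The count was 7 without B16-BL6 replicate 1 or 2 and 8 without replicate 4. Without Myc-CaP replicate 2, 18 genes were higher in B16-BL6 and 1 in Myc-CaP, with a median of 0.62.

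Hypoxia and glycolysis genes were higher in B16-BL6 for 14 of 16 tested, against 30.2% of all genes. Their median was 1.22, which moved to 0.58 with the 6 vehicle tumors in place of the sgNC tumors. Car9, the hypoxia-induced carbonic anhydrase, stood at 278, 220.4 and 201 CPM against 8.85, 4.47 and 4.53 CPM. Adm (adrenomedullin) and Ndrg1, further hypoxia targets, gave log2 fold changes of 4.56 ± 0.20 and 4.04 ± 0.28. Other targets moved less or were level, with Bnip3, a mitophagy gene, at 1.05 ± 0.35 and Ankrd37 at 6.16, 6.25 and 5.95 against 7.49, 5.16 and 9.15 CPM, not called. Among glycolytic genes of the list, Ldha, the lactate dehydrogenase A chain, stood at 2111, 2259 and 1901 against 1214, 629 and 1018 CPM, and Pgk1 and Aldoa gave 1.31 ± 0.24 and 1.63 ± 0.19. Without Myc-CaP replicate 2, 14 genes were higher in B16-BL6 and 2 in Myc-CaP. Ldhb, the other lactate dehydrogenase chain, nearly vanished from Myc-CaP, at 323, 319 and 259.9 CPM in B16-BL6 and 0, 0.0993 and 0.954 in Myc-CaP. Tumor size and oxygen were not measured in these files.

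Uba1, the E1 enzyme the study targets elsewhere (chromosome X, 20658326 to 20683179, plus strand), was slightly higher in the melanoma controls, at 401, 445 and 398 CPM against 317, 321 and 333 CPM, a log2 fold change of 0.36 ± 0.09 (adjusted p = 0.00988). As a check of the labels, it stood at 146.0 to 158.1 TPM in the B16-BL6 controls and 80.7 to 92.95 TPM in the 4 B16-BL6 tumors labelled sgUba1, whereas Myc-CaP sgNC tumors held 120.6 to 130.8 TPM. Of 10 E1 genes, 6 were higher in B16-BL6 and 1 in Myc-CaP, against 30.2% and 29.7% of all genes, none by 4-fold. The number higher in B16-BL6 was 4 without B16-BL6 replicate 1 or 2 and 5 without any other single tumor. Uba6, the second ubiquitin E1, ran opposite to Uba1 at -0.55 ± 0.12. Atg7, the autophagy E1, and Sae1, a subunit of the SUMO E1, were higher in B16-BL6 at 1.10 ± 0.09 and 0.78 ± 0.12. The widest of the list was Mocs3, the activator of URM1, at 4.28, 4.39 and 4.98 against 1.96, 0.993 and 0.954 CPM. Uba7, the E1 of ISG15, stood at 12.1, 7.64 and 14.4 against 14.7, 27.4 and 12.7 CPM and overlapped.

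Ubb, which encodes linked ubiquitin copies, stood at 867, 836 and 761 CPM in B16-BL6 and 463, 409 and 412 in Myc-CaP (0.94 ± 0.10), and its near-identical pseudogene Ubb-ps stood at a mean of 1.5 and 174 CPM. Summed over the family of 3, the log2 fold change fell to 0.44 (adjusted p = 0.00605).

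E2 enzymes divided into 10 higher in B16-BL6 and 7 higher in Myc-CaP of 35 tested, against 30.2% and 29.7% of all genes. No E2 gene differed by 4-fold. Ube2v1, the cofactor for lysine 63 chains, stood at 259, 295 and 260.3 against 116, 92.2 and 111 CPM, and its catalytic partner Ube2n followed at 0.70 ± 0.10. Ube2e3 and Cdc34, the E2 of cullin ligases, were higher in B16-BL6 at 1.66 ± 0.10 and 1.15 ± 0.11. Higher in Myc-CaP were Ube2l6, the ISG15 conjugating enzyme, at -1.12 ± 0.25, Ube2q2 at -1.29 ± 0.26, and the giant hybrid enzyme Birc6 at -0.51 ± 0.09.

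Cullin ligase genes gave 10 higher in B16-BL6 and 8 higher in Myc-CaP of 23, against 30.2% and 29.7% of all genes. Scaffolds and receptors stood on both sides. The scaffolds Cul1, Cul3, Cul5 and Cul7 and the RING subunits Rbx1 and Rnf7 were higher in B16-BL6, with Cul7 widest at 165, 169 and 164 against 63, 49.1 and 54.6 CPM. Vhl, the receptor that marks HIF-1α, stood at 56.8, 50.8 and 46.5 against 20, 15.9 and 17.3 CPM. Spop, a CUL3 receptor commonly mutated in human prostate cancer, was higher in Myc-CaP at 127, 120.5 and 129.9 CPM against 55.1, 49.8 and 53.8. Ddb1, the adaptor of CUL4, was also higher in Myc-CaP, at 1065, 977 and 1135 CPM against 436, 472 and 442 in B16-BL6. Cul4a followed at -0.63 ± 0.09.

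Among 27 other E3 ligases, 6 were higher in B16-BL6 and 7 in Myc-CaP, against 30.2% and 29.7% of all genes. Stub1, a ligase that works with chaperones, was higher in Myc-CaP at 73.5, 67.9 and 74.2 CPM against 52.6, 54 and 51.8 (-0.45 ± 0.08, adjusted p = 0.00278). Nedd4l, a HECT ligase, stood at 102, 118 and 92.4 CPM in B16-BL6 and 11.5, 2.48 and 3.02 in Myc-CaP, and Rnf128, known as GRAIL, at 20.7, 18.3 and 19.2 and 1.19, 0.596 and 1.67. Cblb, a brake on T cell and receptor signaling, stood at 148, 121 and 118 CPM in Myc-CaP against 35.1, 34.4 and 34.4 and was also present in the cultured cells at 22.7 to 26.1 TPM. Huwe1, a HECT ligase that acts on MYC and MCL1, followed at -0.98 ± 0.10. Nedd4 was abundant in both, at 1584, 1583 and 1529 CPM and 1677, 1862 and 1632 CPM, and was not called.

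Deubiquitinases were called in both directions, 21 of 55 tested higher in Myc-CaP and 15 in B16-BL6, against 29.7% and 30.2% of all genes, with a median of -0.05. With all 12 Myc-CaP control tumors the split was 22 and 22. The widest was Uchl1, a ubiquitin hydrolase of neurons and of some cancers, at 318, 219.7 and 291 CPM in Myc-CaP and 7.55, 8.52 and 8.63 CPM in B16-BL6 (-5.07 ± 0.18). Cultured Myc-CaP cells held 270.3 to 316.2 TPM of it. Tnfaip3 (A20), a brake on NF-κB, stood at 33.8, 61.8 and 61 CPM in Myc-CaP against 9.62, 11.4 and 9.6 in B16-BL6. On the melanoma side stood Josd2 at 74, 80.3 and 58.5 against 12.5, 13.1 and 14.5 CPM and Usp5, which disassembles free ubiquitin chains, at 185, 208 and 187 against 69.9, 65.1 and 69.6 CPM.

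Of 34 proteasome subunits, 14 were higher in B16-BL6 and 4 in Myc-CaP, against 30.2% and 29.7% of all genes. Changes were under 4-fold, with a median of 0.21. All 3 catalytic subunits were among those higher in B16-BL6, with Psmb5 at 1.41 ± 0.10, Psmb6 at 1.03 ± 0.14 and Psmb7 at 0.86 ± 0.11. So were the base ATPases Psmc1 to Psmc5, from 0.38 for Psmc2 to 1.11 for Psmc4. With EV tumors in place of sgNC tumors the split was 16 against 11, and the number higher in Myc-CaP was 1 when any tumor but Myc-CaP replicate 2 was left out. The inducible subunits Psmb8 and Psmb9 overlapped between the groups, at 7.58, 2.83 and 18.5 against 10.5, 7.94 and 9.38 CPM for Psmb8, and the regulator genes Psme1 and Psme2 ran in opposite directions at 0.62 ± 0.15 and -0.52 ± 0.11.

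**Figure D3:**
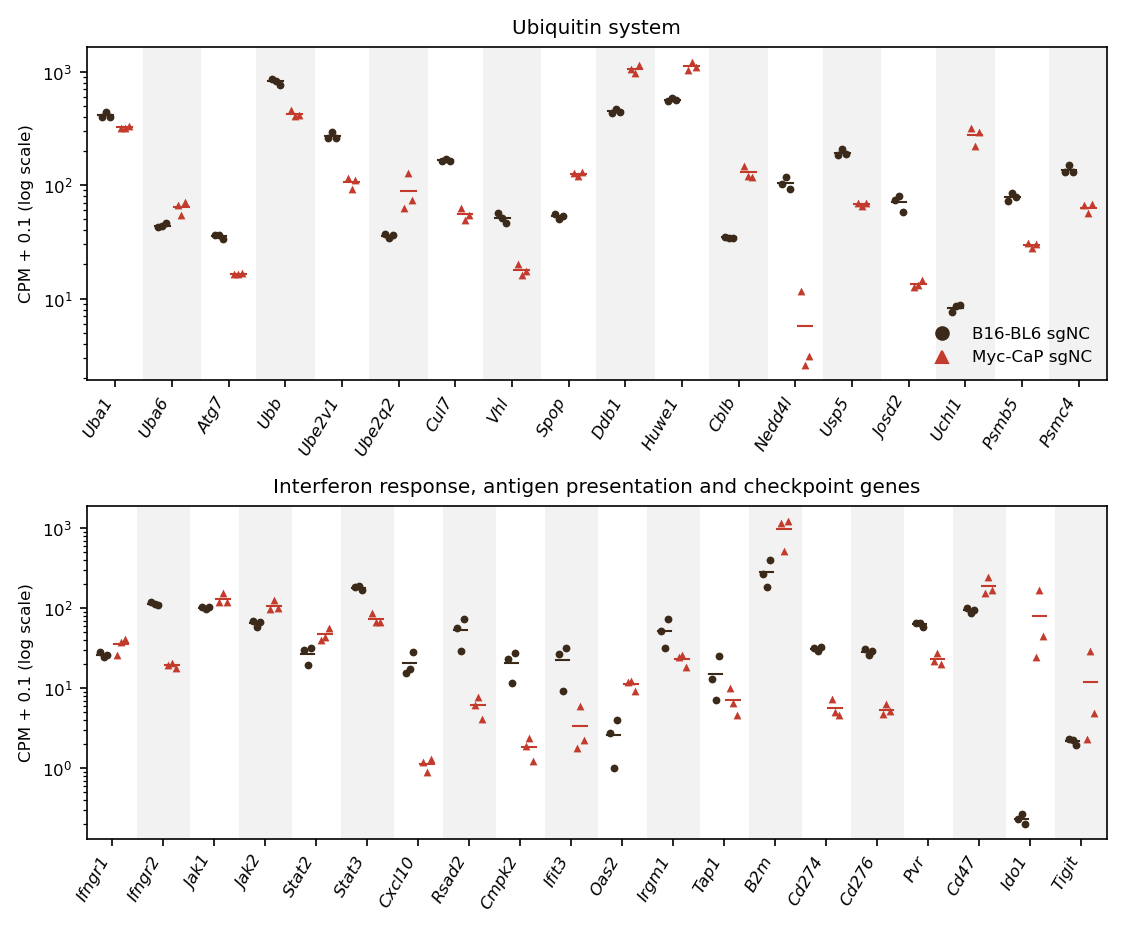
CPM plus 0.1 on a log scale for ubiquitin system genes (top) and interferon, presentation and checkpoint genes (bottom), with circles for the 3 B16-BL6 and triangles for the 3 Myc-CaP tumors and bars at the means. Uba1 differs by a log2 value of 0.36, and Uchl1, Ifngr2, Cxcl10, Cd274 and Ido1 separate without overlap.

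Interferon receptor and signaling genes were called in both directions, with 5 of 15 higher in B16-BL6 and 5 in Myc-CaP, against 30.2% and 29.7% of all genes. The number higher in Myc-CaP was 3 without any one B16-BL6 tumor or Myc-CaP replicate 3. Ifngr2, the signaling chain of the IFN-γ receptor, stood at 119.9, 113 and 109 CPM in B16-BL6 and 19.6, 20.5 and 17.8 in Myc-CaP (2.56 ± 0.10), while the ligand-binding chain Ifngr1 stood at 28.4, 24.3 and 25.9 and 25.8, 38.1 and 41.5 and was not called. Both chains of the type I receptor were higher in B16-BL6, Ifnar1 at 0.67 ± 0.09 and Ifnar2 at 0.73 ± 0.09. The kinases ran the other way. Jak1 stood at 104, 98.5 and 103 CPM in B16-BL6 and 120.3, 156 and 118 in Myc-CaP (-0.37 ± 0.12), and Jak2 and Tyk2 gave -0.73 ± 0.13 and -0.73 ± 0.15. Stat3 was higher in B16-BL6 at 1.29 ± 0.12, and Stat2 was higher in Myc-CaP at -0.80 ± 0.22. Ifng itself averaged 0 and 0.0284 CPM.

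Interferon-stimulated genes showed no single order. Of 28 tested, 8 were higher in B16-BL6, 3 in Myc-CaP and 17 were not called, against 30.2% and 29.7% of all genes. Cxcl10, a T cell chemokine, stood at 15.2, 17.5 and 28.3 CPM against 1.11, 0.794 and 1.19, and the antiviral genes Rsad2 and Cmpk2 at 57.3, 29.4 and 73.7 against 6.13, 7.75 and 4.06 and 23, 11.5 and 27.1 against 1.79, 2.28 and 1.11. B16-BL6 replicate 2 was the lowest of its group for Rsad2, Cmpk2 and Ifit3, and without it 12 genes were higher in B16-BL6 and 1 in Myc-CaP, whereas without replicate 4, the highest, the numbers were 7 and 4. The number higher in Myc-CaP was also 1 without B16-BL6 replicate 1 or Myc-CaP replicate 1. Higher in Myc-CaP were the oligoadenylate synthetase genes Oas2 (12, 12.1 and 9.23 against 2.66, 0.906 and 3.95 CPM), Oas3 (-1.21 ± 0.36) and Oasl1 (-1.35 ± 0.39). Cxcl9, a chemokine induced by IFN-γ, stood at 2.79, 2.89 and 7.73 and 6.3, 2.58 and 3.42 CPM and Isg15 at 7.45, 2.69 and 9.37 and 9.79, 10.5 and 7.87, and both overlapped.

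Of 10 class I antigen presentation genes, 5 were higher in Myc-CaP and 1 in B16-BL6, against 29.7% and 30.2% of all genes. Without B16-BL6 replicate 2, 3 were higher in B16-BL6. B2m, the shared light chain of class I molecules, stood at 269, 184 and 398 CPM in B16-BL6 and 1154, 522 and 1241 in Myc-CaP (-1.78 ± 0.40), with 133.7 to 233.9 TPM in cultured Myc-CaP cells against 1278 to 2908 TPM in the tumors. The peptide trimmer Erap1 and the loading factor Tapbp followed at -1.28 ± 0.17 and -0.88 ± 0.19. The transporter Tap1 and the class I activator Nlrc5 were not called, at 12.8, 7.02 and 24.9 against 10.04, 6.36 and 4.45 CPM for Tap1, and Canx, a chaperone, was higher in B16-BL6 at 0.62 ± 0.12. Of 3 class II genes, 1 was higher in Myc-CaP, and all 3 were without B16-BL6 replicate 4 or with the EV tumors. The classical H2 heavy chain genes were not analysed here.

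Checkpoint genes split by ligand. Cd274, encoding PD-L1, stood at 31.9, 29.1 and 32.7 CPM in B16-BL6 and 7.15, 4.96 and 4.53 in Myc-CaP (2.49 ± 0.19, adjusted p = 4.29e-05), Cd276 (B7-H3) at 30.7, 26.1 and 28.8 and 4.68, 6.16 and 5.01, and Pvr, a ligand of TIGIT, at 65.5, 64.4 and 58 and 22, 27.1 and 20.1. Higher in Myc-CaP were Cd47, the signal that restrains macrophages, at 154, 248 and 167 against 100.2, 87.6 and 94 CPM, Vsir (VISTA) at -1.63 ± 0.30, and Ido1, which degrades tryptophan, at 24.7, 170.4 and 44.4 against 0.13, 0.17 and 0.1 CPM. Replicate 2 was the highest Myc-CaP tumor for Ido1. Vtcn1 (B7-H4) stood at 6.47, 0.695 and 4.06 CPM with no count in B16-BL6, at least 39.7-fold lower. Tigit, usually a T and NK cell receptor, was called higher in Myc-CaP at 2.21, 28.8 and 4.77 against 2.24, 2.18 and 1.87 CPM, where the groups overlapped and replicate 2 was far above the rest, and cultured Myc-CaP cells, which hold no T cells, had 42.8 to 57.5 TPM of it. The Ido1 RNA of those cells was 12.3 to 15.6 TPM.

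T cell, NK cell and B cell transcripts were low in both models. Of 17 T cell genes, 7 could be tested, and 4 of these were higher in Myc-CaP, against 29.7% of all genes. The summed level of all 17 was 10.3, 10.6 and 11.4 CPM in B16-BL6 and 20.3, 19.1 and 18.6 in Myc-CaP. Cd3e, a defining T cell gene, averaged 0.214 and 0.142 CPM, Cd8a stood at 4.47, 3.96 and 3.68 against 3.4, 2.58 and 3.02 CPM and was not called (-1.42 with EV tumors in place of sgNC tumors), and Cd3d, higher in Myc-CaP at -0.82 ± 0.18, was also read at 2.87 to 5.92 TPM in the cultured cells. Those cells held 0.912 to 1.08 TPM of Cd8a as well, against 1.49 to 1.81 TPM in the Myc-CaP sgNC tumors. Cd5 was the widest at 4.94, 4.67 and 5.57 CPM in Myc-CaP against 0.0972, 0.0849 and 0.134 in B16-BL6, with at most 0.0326 TPM in cultures. Much of the gap between the summed levels lay in Cd5 alone. Foxp3, the regulatory T cell factor, was higher in Myc-CaP at -1.97 ± 0.41 and stood at 0.28 to 1.39 TPM in cultured cells. Of 14 NK and cytotoxic genes and 9 B cell genes, 1 and 2 were tested and 1 of each was higher in Myc-CaP, with Gzmb at a mean of 0.117 and 0.375 CPM.

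Macrophage genes were at a summed 183, 170.4 and 263 CPM in B16-BL6 and 344, 872 and 423 in Myc-CaP. Of 16 tested, 7 were higher in Myc-CaP and 1 in B16-BL6, against 29.7% and 30.2% of all genes. Lyz2, the lysozyme of myeloid cells, stood at 92.3, 169.5 and 100.3 CPM in Myc-CaP and 34.8, 33.9 and 51.6 in B16-BL6, and was at 0 in the 4 cultured libraries. The complement genes C1qa, C1qb and C1qc, made by macrophages, followed at -1.52, -1.37 and -1.29, and were at most 0.111 TPM in culture. Csf1r and Adgre1 (F4/80), both defining genes, stood at 14, 12.5 and 19.9 against 16.7, 61.8 and 29.3 and 7.16, 5.52 and 12.3 against 8.51, 13.1 and 10.6 CPM and were not called. Arg1, an arginase of suppressive macrophages, showed the widest difference at 44.2, 246 and 81 CPM in Myc-CaP against 2.11, 1.73 and 4.08 in B16-BL6, but the cultured Myc-CaP cells held 12.2 to 27.3 TPM of it. Cd68 ran the other way at 0.69 ± 0.18. None of 7 tested neutrophil genes was called, or 2 higher in Myc-CaP without Myc-CaP replicate 1, and Ly6g, a defining one, had no count in any of the 6 tumors. Dendritic cell genes gave 1 and 1 of 6 tested in the respective directions. Of 3 tested mast cell genes, 2 were higher in Myc-CaP, with Tpsab1 at 1.36, 10.2 and 2.62 CPM in Myc-CaP and no count in B16-BL6. That number was 1 of 5 without B16-BL6 replicate 1 and 5 of 6 without Myc-CaP replicate 1.

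**Figure D4:**
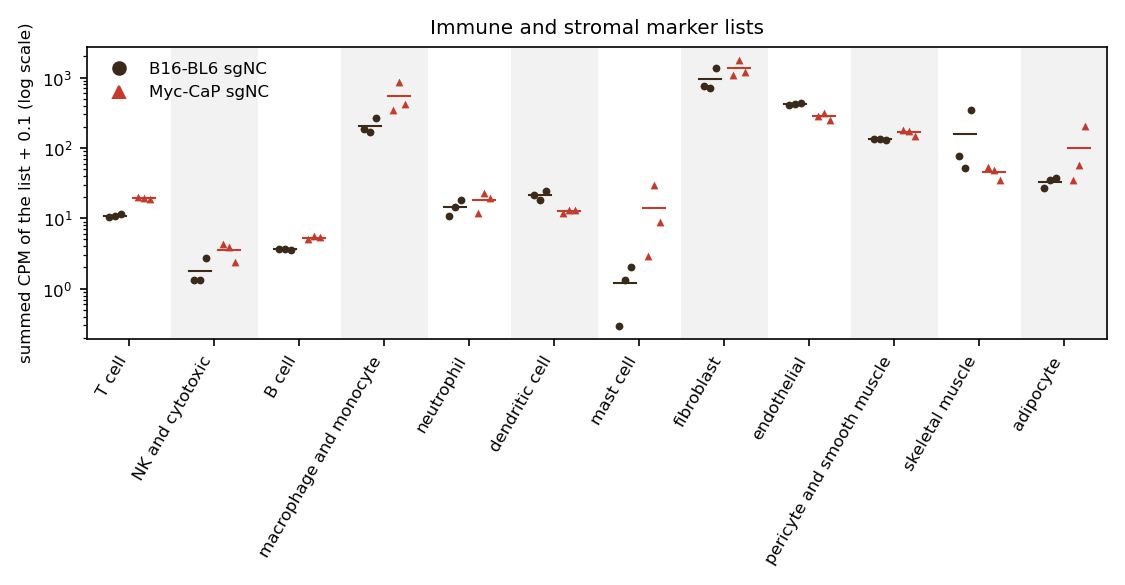
Summed CPM of 12 immune and stromal marker lists, plus 0.1, on a log scale, with circles for the 3 B16-BL6 and triangles for the 3 Myc-CaP tumors and bars at the means. The T cell sum lies between 10.3 and 11.4 in B16-BL6 and between 18.6 and 20.3 in Myc-CaP, with much of that gap in Cd5. Single tumors stand out for skeletal muscle, adipocyte and mast cell lists.

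Fibroblast genes overlapped in total, at 766, 699 and 1365 CPM summed in B16-BL6 and 1098, 1759 and 1187 in Myc-CaP. Of 17 tested, 2 were higher in B16-BL6 and 6 in Myc-CaP, against 30.2% and 29.7% of all genes. The number higher in Myc-CaP was 3 without B16-BL6 replicate 1, 4 without replicate 2 and 8 without replicate 4, and that higher in B16-BL6 was 1 without any one B16-BL6 tumor or Myc-CaP replicate 3. Col1a1 and Col3a1, the main fibrillar collagens, stood at 168, 132 and 342 against 320.5, 533 and 344 and 151, 143 and 401 against 142, 432 and 234 CPM and were not called, while Col1a2 (-0.94 ± 0.29) and Postn (-1.21 ± 0.33), a matrix protein of activated fibroblasts, were higher in Myc-CaP. Fbln1, a fibulin, stood at 131, 142 and 121 CPM in B16-BL6 against 2.47, 5.66 and 3.1. Pdgfra and Twist2 were higher in Myc-CaP at -2.96 ± 0.28 and -5.61 ± 0.45, and the cultured cells, free of fibroblasts, held 5.68 to 9.14 and 24.6 to 34.3 TPM of them.

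Endothelial genes were higher in Myc-CaP for 9 of 18 and in B16-BL6 for 3, against 29.7% and 30.2% of all genes. The number higher in Myc-CaP fell to 4 without B16-BL6 replicate 1 or 2 and to 5 without replicate 4. Pecam1, Cdh5 and Kdr, defining vessel genes, gave -0.52 ± 0.16, -0.44 ± 0.11 and -0.50 ± 0.16. Eng (endoglin) went against them at 205, 207 and 215 CPM in B16-BL6 and 15.3, 17 and 16.8 CPM in Myc-CaP (3.68 ± 0.09), as did Ramp2 and Egfl7. The summed level was 402, 422 and 428 CPM in B16-BL6 and 286, 309 and 249 in Myc-CaP. Eng alone set the order of these sums, since the other members together summed lower in each B16-BL6 tumor than in any Myc-CaP tumor. The direction depended on the Myc-CaP tumors used: with the 6 vehicle tumors, 1 endothelial gene was higher in Myc-CaP and 6 in B16-BL6, and Pecam1 stood at 0.002. Among pericyte and smooth muscle genes, Tagln was higher in Myc-CaP at -2.06 ± 0.36 and Des in B16-BL6 at 1.55 ± 0.48, and Pdgfrb and Rgs5 were not called.

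Single tumors stood out for muscle and fat genes. Skeletal muscle genes summed to 77, 52.5 and 341 CPM in B16-BL6, where replicate 4 stood high with 67.9, 43.8 and 231 CPM of Ttn and 0.0648, 0.0566 and 17.3 CPM of Acta1, and to 53.5, 49.1 and 35.5 CPM in Myc-CaP. Without B16-BL6 replicate 4 the list's median fell from 0.95 to -0.46. The muscle gene Tnni2 was higher in Myc-CaP at 25.5, 40.4 and 18.6 CPM and was expressed at 53.2 to 72.5 TPM by the cultured Myc-CaP cells. Adipocyte genes peaked in Myc-CaP replicate 3, with Cfd (adipsin) at 0, 0.199 and 41.8 CPM in Myc-CaP and 2.24, 4.42 and 4.32 in B16-BL6 (log2 fold change -1.95, and 5.24 without that tumor). Fabp4 was the one called of 7 tested, higher in Myc-CaP, and the cultured Myc-CaP cells expressed it at 1 TPM or more in every library. When Myc-CaP replicate 3 was left out, 6 of 8 adipocyte genes were higher in B16-BL6. Of 13 keratinocyte genes, the 3 that could be tested were higher in Myc-CaP, namely Krt15, given above, Krt79 at 1.45, 18.9 and 1.83 against 0, 0.0566 and 0 CPM and Lgals7 at 1.53, 0.794 and 1.43 against 0.518, 0.396 and 0.268. The list summed to 0.583, 0.481 and 0.301 CPM in B16-BL6 and 189.6, 1301 and 503 in Myc-CaP, where nearly all of it was Krt15, while Krt5, Krt1, Krt10 and Lor, genes of epidermis, had at most 2 counts in either group. The part of these tissues in other results was not tested.

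Sex-linked genes followed the host only in part. Eif2s3y, on the Y chromosome, stood at 1.36, 2.88 and 1.83 CPM in the Myc-CaP tumors of male hosts and had no count in the B16-BL6 tumors of female hosts or in the cultured Myc-CaP cells. Uty and Ddx3y showed the same order at 2.13, 2.78 and 1.75 and 6.21, 5.56 and 6.36 CPM in Myc-CaP and at most 0.0972 and 0.991 CPM in B16-BL6. Kdm5d was read in both, at 4.73, 5.6 and 4.01 and 6.04, 7.15 and 7.08 CPM, and was not called. Xist, the RNA of the inactive X, stood at 51, 2.66 and 79.7 CPM in B16-BL6 and 2.47, 1.89 and 2.94 CPM in Myc-CaP, so that B16-BL6 replicate 2 lay at the Myc-CaP level. The 4 B16-BL6 tumors labelled sgUba1 held 6.37 to 6.92 TPM of Xist, against 4.02, 0.204 and 7.05 TPM in the 3 controls.

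The largest differences of all, among genes above a mean log2 CPM of 3 and without overlap, were, in B16-BL6, Dct, Tyrp1, Mlana, Gjb2, Trpm1, Pmel, Cfap54, Gm47761, Epha3 and Ldhb. Of these 10, 5 are in the melanocyte list. Outside that list, Gjb2, a connexin of epidermis and cochlea, stood at 436, 504 and 411 CPM against 0, 0.0993 and 0.0795, Cfap54, a gene of motile cilia, at 558, 556 and 542 against 0.596, 0.298 and 0.318, and the ephrin receptor gene Epha3 at 412, 537 and 417 against 0.511, 0.496 and 0.636. In Myc-CaP they included Rpl3-ps1, Rps7-ps3, Aldh1a1, Rps18-ps6, Atp1b1, Gm15459, Prom2, Hmga1b and Crispld2. Aldh1a1, a retinaldehyde dehydrogenase of epithelial progenitors, stood at 1812, 1923 and 2849 CPM against 0.292, 0.453 and 0.401. Atp1b1, the sodium pump beta chain, stood at 495, 217 and 527 against 0.0972, 0.113 and 0.335 CPM, and Prom2, a membrane protein of epithelia, at 633, 161 and 464 against 0, 0.679 and 0. Rpl3-ps1, Rps7-ps3, Rps18-ps6, Gm15459 and Hmga1b are near-identical copies of abundant genes.

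For several abundant genes, counts that lay on the gene in B16-BL6 lay in Myc-CaP wholly or partly on a near-identical copy. Rps2, a small ribosomal subunit protein, stood at 1149 ± 32.5 CPM in B16-BL6 and 2.66 ± 0.419 in Myc-CaP (SD, n = 3), and its processed pseudogene Rps2-ps10 at 2.99 ± 0.105 and 1376 ± 238. Summed over the family of 28 copies, the groups stood at 1153 and 1380 CPM and were not called (adjusted p = 0.153). Rpl3 and Rps7 kept a part of their Myc-CaP counts, at 210 CPM against 988 for Rpl3-ps1 and 53.4 against 593 for Rps7-ps3, while both copies averaged under 1 CPM in B16-BL6. Hspa8 kept more than its copy, at 1151 CPM in Myc-CaP against 1006 for Gm15459, which averaged 0.459 CPM in B16-BL6. The sums of these 3 families gave -0.26, 0.32 and 0.17 on the log2 scale, none called. Not every sum was level, since Hmga1 with Hmga1b stayed higher in Myc-CaP when summed (-1.68), Eno1 with Eno1b stayed higher in B16-BL6 (1.52 against 2.69 for Eno1 alone), and Rps18 with its copies stayed higher in Myc-CaP (-0.585).

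Of 135 families of near-identical copies with a tested gene, 26 had members called in both directions, and when summed 12 of these were not called, 13 were higher in B16-BL6 and 1 in Myc-CaP. The search began from list genes and from genes called here by at least 4-fold with a mean log2 CPM of at least 3. These numbers therefore describe families picked partly by the same comparison and give no rate for genes in general. The search also joined some distinct genes that share a stretch of transcript, such as Vps25 with Ramp2, and Sod2 with Rps6ka2 among those 12. For Rps2, the cultured Myc-CaP cells and the EV and vehicle tumors, all of FVB origin, gave the same picture as the Myc-CaP sgNC tumors, with Rps2 at 3.49 to 8.18 TPM and Rps2-ps10 at 2882 to 4101 TPM. The 4 B16-BL6 sgUba1 tumors held 2033 to 2208 TPM of Rps2 and 5.42 to 7.24 TPM of Rps2-ps10. The tables were made on mm10, whose sequence is of the C57BL/6 strain, and strain and line move together here, so their parts cannot be told apart. Replication-dependent histone genes are many and alike. Of 18 tested, 15 were higher in B16-BL6 and 3 in Myc-CaP, against 30.2% and 29.7% of all genes. Their median was 1.69. With copies summed, the numbers were 13 and 2 and the median 0.83. Members of a family then share its value, so these are not separate results.

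**Figure D5:**
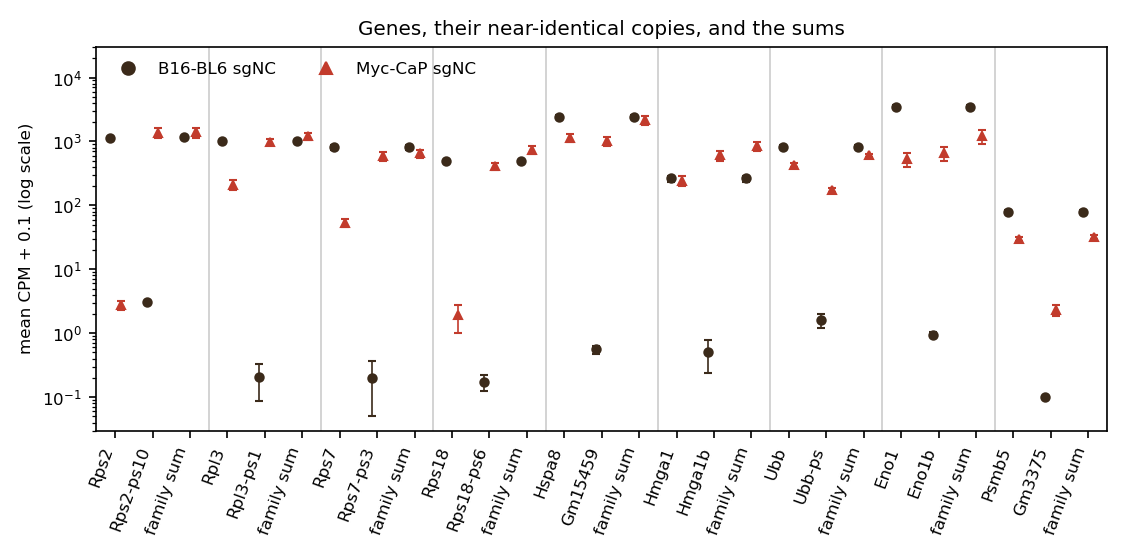
Mean CPM plus 0.1 on a log scale for 9 genes, a near-identical copy of each, and the sum over the whole family, with circles for B16-BL6 and triangles for Myc-CaP and bars of 1 SD over 3 tumors. Rps2 and Rps2-ps10 are reversed between the models, at 1149 and 2.66 CPM against 2.99 and 1376 CPM, while their family sums lie close together.

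Mitochondrial transcripts were moderately higher in B16-BL6. Of 13 tested, 8 were higher in B16-BL6 and 1 in Myc-CaP, against 30.2% and 29.7% of all genes. The numbers were 5 and 1 without B16-BL6 replicate 1 and 8 and 3 without Myc-CaP replicate 2. The transcript mt-Co1 stood at 7946, 7402 and 6960 against 5603, 4014 and 5094 CPM. Rmrp and Terc, RNAs without a poly-A tail, were read in both models at 5308, 5818 and 5465 against 4276, 4143 and 4289 CPM for Rmrp.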

How the data were processed

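Bulk RNA-seq was compared in 3 B16-BL6 and 3 Myc-CaP control tumors. The deposited tables hold, for 40077 genes, expected counts and TPM that the authors estimated with kallisto on mm10, per the submitters' notes, with versions not given in the sources used here. Expected counts were rounded to whole numbers, although whole counts had been planned for. The labels describe poly-A selection and the study's methods an rRNA depletion kit. A symbol found at several gene IDs was read at the ID of higher level.

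Genes passing edgeR's filterByExpr (17114) were tested with the quasi-likelihood test of edgeR 4.0.16 (R 4.3.3, TMM factors, the 6 tumors only, Benjamini-Hochberg adjustment at 0.05). CPM used TMM-scaled depth, and TPM served for levels outside the 6 tumors. The members and all 38 lists were chosen with earlier results of these data known. Members of the lists (660 genes in the table) could be named, and beyond them the 10 largest changes in each direction among called genes without overlap and with a mean log2 CPM of at least 3. Folds against a group with no count used a floor of 3 counts per library, and floors cover counting error only. Near-identical copies shared at least 95% identity over at least 50% of the shorter transcript, which had to be at least 300 bases long (blastn 2.17.0, megablast). They were searched for 1619 genes, of which 187 had one.

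On simulated data of the same 17114 genes, of which 200 were changed, 53% of 2-fold and 92% of 4-fold changes were recovered with 4 false calls. Far more genes than that were called between the tumors, so these rates need not hold for the real comparison. Alternatives were DESeq2 1.42.0, limma-voom and limma on log2(TPM + 1) or log2(TPM + 0.1) (limma 3.58.1), RLE factors, other filters, thinned counts, other Myc-CaP controls, a replicate block and leaving out each tumor. Summing copies was chosen after seeing the data. Some genes are not reported here and were left out of the lists, and of the list counts, for that reason.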

Additional observations from a re-analysis of the deposited data

How the results depend on the processing

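The numbers of genes called kept within 1.5 times of 5167 and 5076 under every alternative except the replicate block, which left 3286 higher in B16-BL6 and 3040 higher in Myc-CaP. The groups share the numbers 1 and 2 only as numbers: deviations of same-numbered tumors correlated at 0.00129 and -0.189 across 10046 genes, and with only those 2 pairs the block uses up degrees of freedom. Leaving out 1 tumor gave 4271 to 5788 and 4167 to 5669 genes. Among named genes, 41 calls were lost with the replicate block, 10 with the vehicle tumors, 6 with the EV tumors and from 2 to 12 when a tumor was left out. Directions turned for Acta1 (-3.45) and Cfd (5.09) with the replicate block, for Cfd without Myc-CaP replicate 3 (5.24, with -2.52 as the other end of its leave-one-out range), for Pecam1 with vehicle tumors (0.002), for Cd8a with EV tumors (-1.42), and for Gm15459 (0.17) and Rps7-ps3 (0.32) with copies summed, where each takes its family's value. The cause was not tested for the others. List medians changed sign for skeletal muscle (-1.57 with vehicle tumors), adipocyte (3.98 without Myc-CaP replicate 3), interferon-stimulated (-0.061 without B16-BL6 replicate 4), immunoproteasome (-0.347 without it), E2 enzymes (-0.051 on log2(TPM + 1)), pericyte (0.102 with vehicle tumors), Hox (0.153 with EV tumors), cancer driver (0.183 with at least 10 counts in every library) and B cell genes (0.128 without Myc-CaP replicate 2). The Myc-CaP libraries are the shallower ones, and thinning all 6 to the shallowest left 4750 and 4672 calls among 15766 genes.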
